A study of Mus musculus with 2 samples.

Results

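The insulin-like growth factor (IGF) binding proteins of the mouse liver, Igfbp1 to Igfbp7, were described together with Igf1, the growth factor that they bind. The 8 genes were taken by symbol from the 31053 gene rows of a single-cell RNA-sequencing library, and all 8 were present. They were described in hepatocytes, defined as barcodes in which Alb, Apoa1, Apoa2, Ttr and Fgb together gave at least 1% of gene UMIs (unique molecules), and in the other liver cells of the same library. No member took part in the choice of cells.

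Livers of 3 mice were taken on day 6 after plasmid delivery by hydrodynamic tail-vein injection, in which a large volume given quickly brings DNA into some of the hepatocytes. The transposon held the fluorescent protein mVenus with oncogenic NRAS(G12V) in 2 mice and with NRAS(G12V/D38A), which has a further change in the effector loop, in 1 control mouse, so all 3 mice carried the transgene. The cells of each mouse were marked with a hashtag (an antibody carrying a DNA tag), sorted for mVenus and pooled into 1 gene expression and 1 hashtag library. The deposited table gives hashtag 1 to the D38A mouse and hashtags 2 and 3 to G12V mice, whereas in the methods of the study the D38A mouse has hashtag 3 and the others are G12V mice. Mice are therefore named by hashtag, the mouse was only a block in each fit, and the 2 constructs were not tested against each other.

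Of 13151 barcodes, 10220 had 500 genes and 1000 UMIs or more with under 20% of UMIs from mitochondrial genes, and 8510 of these were hepatocytes. The hepatocytes were split into 2306 deep barcodes of at least 10000 UMIs (median 39419) and 6204 shallow ones (median 2605.5). HTODemux called 231, 1129 and 25 deep hepatocytes for hashtags 1, 2 and 3, and 56.2% of all barcodes in both libraries for no hashtag. The hepatocyte limit is permissive: 31.1% of hepatocytes lay between 1% and 2%, and 509 also passed the marker gate of another cell type. The construct was read through the mouse Nras row, which reached 1427 UMIs in a barcode. Levels are in CPM, the UMIs of a gene scaled to 1000000 UMIs. Deep hepatocytes were put in 4 bands of Nras CPM, namely baseline (under 300), low (300 to 1000), intermediate (1000 to 3000) and high (3000 or more). For hashtag 1 the bands held 153, 31, 24 and 23 cells. For hashtag 2 they held 827, 137, 93 and 72 cells. Hashtag 3 had 21 baseline cells and at most 2 in any other band, so it entered the fit at baseline only.

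IGFs circulate bound to a family of secreted proteins that prolong their life in plasma and control their access to the IGF1 receptor. Hepatocytes are the main source of circulating Igf1, which they make in response to growth hormone, and of Igfals, the acid-labile subunit that joins Igf1 and Igfbp3 in the large plasma complex. Igfbp1 is a liver-secreted carrier that insulin represses and that stress and fasting induce. Igfbp7 binds IGFs weakly and is known from vessels, and Igfbp5 and Igfbp6 are known from mesenchymal cells.

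In deep hepatocytes with high Nras, the carriers Igfbp1 and Igfbp3 were higher and their ligand Igf1 was lower than at baseline. Igfbp3 was 7.15-fold and Igfbp1 3.40-fold the baseline level, and Igf1 was at 0.113 of it. Igfbp6 was also higher and Igfbp4 lower, both by smaller amounts. In all, 5 of the 7 members tested passed an adjusted p of 0.05 (edgeR's quasi-likelihood test), 3 higher and 2 lower, where 23.7% of the 10628 genes tested passed. Signs of hepatocyte identity differed between the end bands. From baseline to high the median hepatocyte share went from 4.79% to 3.45% in hashtag 1 and from 9.17% to 3.91% in hashtag 2. Alb went from 27435 to 13924 CPM and from 36742 to 16163 CPM. At low Nras the share was 6.82% and 5.78%, and Alb was at 28089.5 and 28096.7 CPM. At that step both were thus lower in hashtag 2 but not in hashtag 1. The summed CPM of the 6 cholangiocyte markers went from 361 to 1200 and from 437 to 1441, nearly all of it Tspan8 (357 to 1199 and 436 to 1431 CPM). Of the 5 other markers of that list Cftr had 0 UMIs in these bands, and Krt19, Krt7 and Sctr together had 1 UMI in the high sums. Epcam was at 2.62 CPM at baseline and 0.857 at high Nras in hashtag 1, and at 0.480 and 9.61 CPM in hashtag 2. The part of these values in the results was not tested. The median log2 change of the 7 members was -0.55 against -0.02 for all genes tested, and Igfbp5 was too low to be tested.

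Igfbp1 and Igfbp3 are neighbours on chromosome 11 of GRCm38, with Igfbp1 on the plus strand at chr11:7197782-7202546 and Igfbp3 on the minus strand at chr11:7206086-7213923. The genes face each other, their ends lie 3539 bases apart, and no protein-coding gene lies between them, so their reads do not fall on shared bases. Because the pair moved together and Igf1 moved against it, the 250 bases before each RefSeq start (GRCm38.p6) are shown from 5′ to 3′, with the motifs that were found in capitals. These are chr11:7197537-7197786 for Igfbp1, chr11:7213924-7214173 on the minus strand for Igfbp3 and chr10:87860861-87861110 for Igf1.
Igfbp1: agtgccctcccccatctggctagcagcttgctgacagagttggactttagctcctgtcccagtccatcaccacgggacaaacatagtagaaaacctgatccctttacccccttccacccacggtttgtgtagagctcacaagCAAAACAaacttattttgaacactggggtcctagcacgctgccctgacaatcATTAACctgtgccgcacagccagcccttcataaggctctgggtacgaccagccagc
Igfbp3: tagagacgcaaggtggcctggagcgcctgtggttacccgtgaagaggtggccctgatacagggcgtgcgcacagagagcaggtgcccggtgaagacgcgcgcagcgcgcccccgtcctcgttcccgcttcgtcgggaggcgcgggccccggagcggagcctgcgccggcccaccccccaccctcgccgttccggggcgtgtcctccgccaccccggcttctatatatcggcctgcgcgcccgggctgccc
Igf1: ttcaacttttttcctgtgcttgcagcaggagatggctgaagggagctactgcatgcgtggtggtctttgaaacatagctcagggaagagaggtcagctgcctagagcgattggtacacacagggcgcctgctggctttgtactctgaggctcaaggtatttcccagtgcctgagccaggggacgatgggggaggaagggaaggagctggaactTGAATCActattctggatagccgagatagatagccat
The capitals in Igfbp1 are CAAAACA, the core of the insulin response element that FOXO factors bind, which begins 108 bases before the start, and ATTAAC, the core of an HNF1 site (GTTAAT) on the other strand, which begins 56 bases before it. Of 32851 promoter windows of this length, 5.56% held CAAAACA and 6.43% held GTTAAT on either strand. The Igfbp3 window held none of the 7 motifs searched, namely those 2, TATAAA, the AP-1 site TGANTCA, the ETS core CCGGAAG, the cAMP response element TGACGTCA and the MYC E-box CACGTG. The Igf1 window held an AP-1 site (TGAATCA, 37 bases before the start), which 6.75% of windows held, and it lies inside the gene as GENCODE draws it, at chr10:87858265-87937042. A match is a description of these letters and not of a factor's binding.

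Igfbp1 rose early along the bands. In hashtag 1 its level was 878 CPM at baseline, 2289 at low, 3451 at intermediate and 3397 at high Nras. In hashtag 2 it was 1069, 2424, 2787 and 3159 CPM, and in the baseline cells of hashtag 3 it was 598 CPM. Every sum above baseline was higher than each of the 3 baseline sums. The log2 difference between high and baseline was 1.77 ± 0.14 (SE, adjusted p = 1.12e-05), of which the step from baseline to low gave 1.31 ± 0.14 (adjusted p = 0.000536). The step from low to intermediate (0.39 ± 0.13, adjusted p = 0.267) and that from intermediate to high (0.07 ± 0.13, adjusted p = 1.00) did not pass.

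Igfbp3 started lower and changed more. Its level was 115, 371, 639 and 728 CPM from baseline to high in hashtag 1, and 87.8, 386, 593 and 690 CPM in hashtag 2. The baseline cells of hashtag 3 gave 129 CPM, so the 3 baseline sums lay apart from all other sums. The difference between high and baseline was 2.84 ± 0.12 on the log2 scale (adjusted p = 1.02e-06). Igfbp3 passed at both lower steps, with 1.95 ± 0.12 from baseline to low (adjusted p = 4.88e-05) and 0.68 ± 0.11 from low to intermediate (adjusted p = 0.0245). The last step of 0.20 ± 0.11 did not pass (adjusted p = 0.975).

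Igf1 was lower in each band than in the one before. It was at 169, 78.7, 48.0 and 20.6 CPM in hashtag 1 and at 179, 76.7, 34.1 and 18.8 CPM in hashtag 2, and hashtag 3 had 186 CPM at baseline. The bands were in the same order in both mice with all bands, and no baseline sum overlapped a sum of another band. Igf1 fell by 3.15 ± 0.18 on the log2 scale between baseline and high (adjusted p = 1.90e-06). It fell by 1.13 ± 0.14 from baseline to low (adjusted p = 0.00152) and by 1.00 ± 0.16 from low to intermediate (adjusted p = 0.0224). The change of -1.02 ± 0.20 from intermediate to high was of like size but did not pass after adjustment (adjusted p = 0.285).

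**Figure D1:**
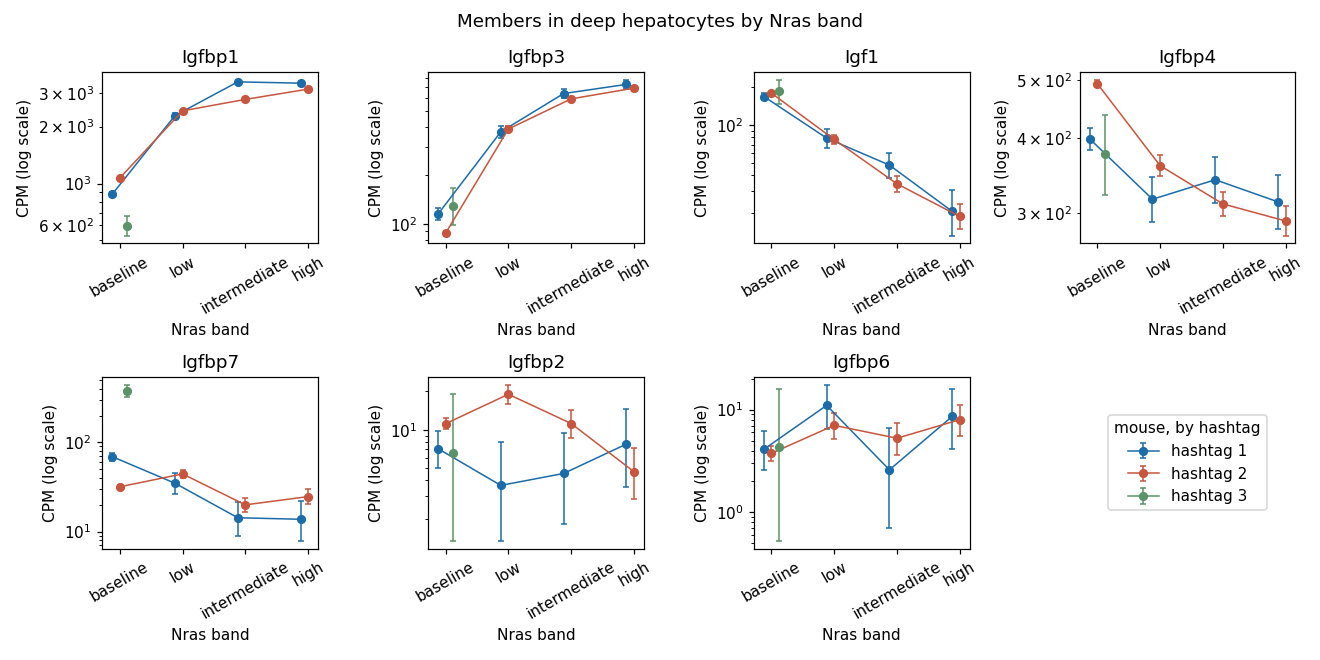
Levels of 7 members (CPM, log axis) in deep hepatocytes by Nras band. Points are sums of the cells of 1 mouse, bars are exact Poisson 95% intervals, and colours mark hashtags; Igfbp1 and Igfbp3 rise from 1069 and 87.8 CPM at baseline to 3159 and 690 CPM at high Nras in hashtag 2, while Igf1 drops from 179 to 18.8 CPM.

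At the first step 3 of the 7 members passed (Igfbp1, Igfbp3 and Igf1), where 5.17% of all genes did. At the second step 2 passed (Igfbp3 and Igf1), where 1.12% of all genes did. At the last step edgeR called no member and 1 gene in all (0.00941%). At that step 1 member, Igf1, had an unadjusted p under 0.05 in edgeR, and the share of all genes under it was not counted. DESeq2 called 1 member, again Igf1 (-1.02 ± 0.28, adjusted p = 0.0385), among 22 genes in all. The first step depended on how cells were chosen and banded. With limits at 150, 500 and 1500 CPM, Igfbp3 alone of the members passed at it. Igf1 also lost this call with bands of mVenus (-0.61, adjusted p = 0.628) and with a hepatocyte share of at least 5% (-0.84, adjusted p = 0.0584). Calls of all genes fell as well, from 549 in the main fit to 46 with these band limits, 10 with bands of mVenus and 59 with the 5% share.

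The 5 other binding proteins had smaller or less certain differences. Igfbp4, a carrier that the protease Pappa cleaves, was at 398, 316, 341 and 313 CPM in hashtag 1 and at 493, 360, 311 and 291 CPM in hashtag 2. It was lower in high than in baseline cells of both mice and fell by 0.55 ± 0.14 on the log2 scale (adjusted p = 0.0155). Without hashtag 2 the difference was -0.28, a value with no test. The call was lost without the mouse as a block (adjusted p = 0.104) and with a hepatocyte share of at least 5% (adjusted p = 0.105).

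Igfbp6, a carrier with a preference for IGF2, was sparse. It had 22 UMIs (4.11 CPM) at baseline and 10 UMIs (8.57 CPM) at high Nras in hashtag 1, and 133 UMIs (3.76 CPM) and 34 UMIs (7.97 CPM) in hashtag 2. The rise of 1.08 ± 0.34 on the log2 scale passed narrowly (adjusted p = 0.0425), and it did not pass with DESeq2 (adjusted p = 0.350), the fixed hashtag rule, other band limits or bands of mVenus. Igfbp6 and Igfbp3 are also abundant in stellate cells or fibroblasts, and the summed CPM of the 8 markers of those cells moved with the bands, from 95.1 to 664 in hashtag 1 and from 141 to 609 in hashtag 2. That increase was in Ecm1 (72.9 to 643 CPM and 101 to 590 CPM). Of the 7 other markers of the list, Pdgfrb had 0 UMIs in all 8 sums of hashtags 1 and 2, Col1a1 had 1 UMI in them, and Reln was lower at high Nras (log2 difference -0.82, adjusted p = 0.0155). The other 4, Dcn, Lrat, Col3a1 and Colec11, were too low to be tested and had 0 to 2 UMIs each in the high sums.

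Igfbp7 was lower at high Nras in both mice but not past the threshold. It was at 69.1, 34.8, 14.3 and 13.7 CPM in hashtag 1 and at 31.7, 44.3, 19.9 and 24.6 CPM in hashtag 2, with a log2 difference of -1.07 ± 0.36 (adjusted p = 0.0561). It passed with DESeq2, bands of mVenus and 4 further alternatives. Without hepatocytes that also passed another marker gate (165 of the deep ones) the difference was -0.60 (adjusted p = 0.108). The summed CPM of the 8 endothelial markers went from 95.7 at baseline to 19.7 at high Nras in hashtag 1 and from 14.6 to 20.4 in hashtag 2, so of these 2 mice it moved with Igfbp7 in hashtag 1 only. At baseline it was 874 in hashtag 3, where Igfbp7 was at 380 CPM. Its part in the Igfbp7 difference was not tested.

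Igfbp2, which is raised in fasted and fetal liver, was at 7.10, 3.66, 4.54 and 7.72 CPM in hashtag 1 and at 11.2, 19.0, 11.2 and 4.69 CPM in hashtag 2. The bands of the 2 mice were in different orders, and the difference between high and baseline (-0.91 ± 0.46, adjusted p = 0.195) did not pass. Igfbp5 was almost undetected, with 6 UMIs in all baseline, 0 in low, 3 in intermediate and 1 in high deep hepatocytes, or 0.0947 CPM at baseline and 0.136 CPM at high Nras. No difference in Igfbp5 was detectable at this depth.

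Finer classes of Nras gave the levels between the bands. Among all deep hepatocytes but the 70 called as hashtag doublets, Igfbp1 rose from 691 CPM in 395 cells with no Nras UMI through 997 at 30 to 100 Nras CPM and 2354 at 300 to 1000 to 3084 at 3000 to 10000. It was then at 2897 CPM in the 19 cells at 10000 or more. Igfbp3 went from 52.3 CPM to 149 at 100 to 300 Nras CPM, 399 at 300 to 1000 and 1006 CPM in the last class. Igf1 went the other way, from 206 to 122, 78.4 and 17.0 CPM in those classes. Igfbp4 was lower at each of the 7 steps, from 495 to 250 CPM. These are pooled sums with no mouse as replicate and are given as a description. Median depth was 24295 UMIs per cell in the class with no Nras UMI and 34915 to 59508 UMIs in the other classes. The part of depth in these levels was not tested. The 851 deep hepatocytes called for no hashtag, which the fit did not use, had Igfbp1 at 1131 and 2667 CPM, Igfbp3 at 95.2 and 766 CPM, and Igf1 at 152 and 16.9 CPM in the baseline and high bands.

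**Figure D2:**
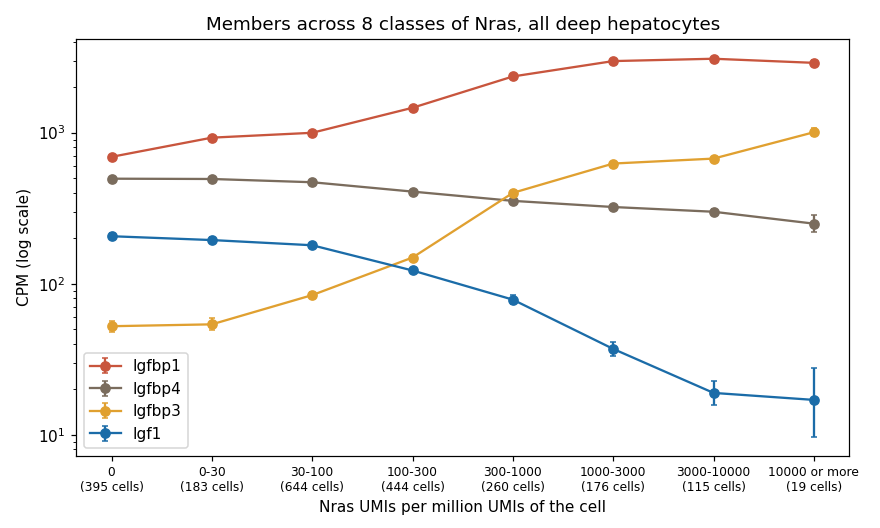
CPM (log axis) of Igfbp1, Igfbp4, Igfbp3 and Igf1 in deep hepatocytes, without hashtag doublets, against 8 classes of Nras CPM, with the number of cells under each class. Bars are exact Poisson 95% intervals; Igfbp3 and Igf1 start at 52.3 and 206 CPM and end at 1006 and 17.0 CPM, crossing between the classes 30-100 and 100-300.

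Depth differed between bands, with median UMIs per cell of 28435 at baseline and 50894 at high Nras in hashtag 1, and of 41918 and 59665 in hashtag 2. Cells were therefore thinned to 10000 UMIs each. Igfbp3 was then found in 21.6% of baseline cells of hashtag 1 (exact binomial 95% interval 15.3 to 28.9%) and in 73.9% of high cells (51.6 to 89.8%). In hashtag 2 these shares were 28.3% (25.2 to 31.5%) and 94.4% (86.4 to 98.5%). The shares for Igf1 went from 61.4% to 17.4% in hashtag 1 and from 63.2% to 15.3% in hashtag 2, with no overlap of the intervals in either mouse. Without thinning the Igf1 shares were 83.7% and 52.2% in hashtag 1 and 86.0% and 59.7% in hashtag 2. Igfbp1 was already in 73.9% and 84.8% of thinned baseline cells, where its median was 2 and 5 UMIs, and high cells had a median of 25 and 23.5 UMIs. Igfbp3 UMIs were unevenly spread among baseline cells: the 10% of cells with most held 80% of them in hashtag 1 and 69.4% in hashtag 2, against 27.8% and 22.7% in high cells. In the fit of thinned cells the log2 differences between high and baseline were 2.14 for Igfbp1, 3.20 for Igfbp3 and -3.05 for Igf1.

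**Figure D3:**
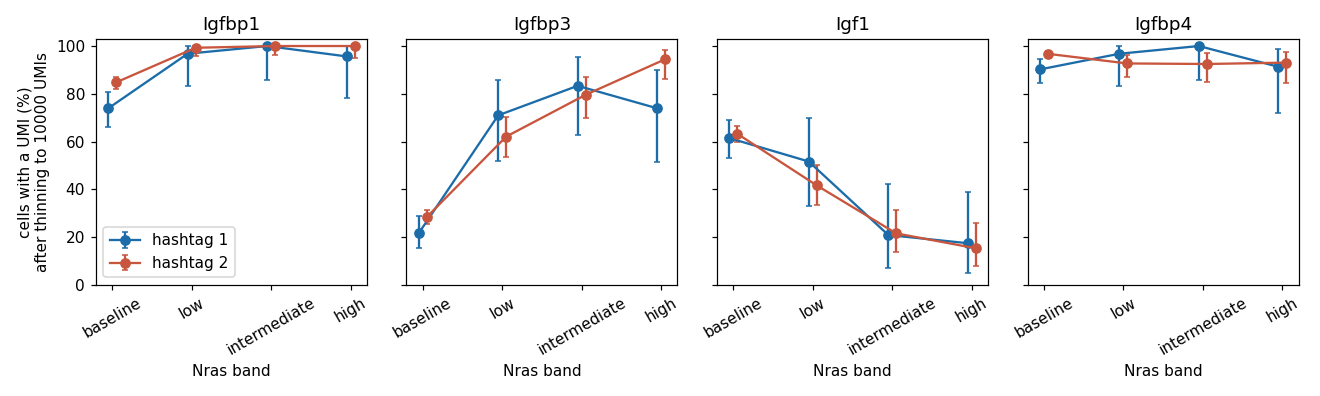
Share of deep hepatocytes (%) with at least 1 UMI of Igfbp1, Igfbp3, Igf1 or Igfbp4 by Nras band after thinning each cell to 10000 UMIs, for hashtags 1 and 2, with exact binomial 95% intervals. Igfbp3 rises from under 30% to over 70% and Igf1 drops from over 60% to under 20%, while Igfbp4 stays above 90% in each band.

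The 3 genes also varied together among baseline cells, with counts thinned to 10000 UMIs per cell. Over the 827 baseline cells of hashtag 2, Spearman's rho was 0.53 between Igfbp1 and Igfbp3, -0.53 between Igfbp1 and Igf1 and -0.42 between Igfbp3 and Igf1. The 153 baseline cells of hashtag 1 gave 0.48, -0.51 and -0.34. In the 72 high cells of hashtag 2 the values were 0.07, 0.02 and -0.14. These cells share a mouse and a library and differed in depth before thinning, so the coefficients are descriptions. Nras also varied within the baseline band. Among all deep hepatocytes, cells with no Nras UMI and those at 100 to 300 Nras CPM had Igfbp1 at 691 and 1460 CPM. They had Igfbp3 at 52.3 and 149 CPM and Igf1 at 206 and 122 CPM. Median depth in these classes was 24295 and 39115.5 UMIs per cell. The parts of Nras and of depth in the coefficients were not tested. Over the 9 sums of mouse and band, genes whose levels were among the most like Igfbp1 were Plat (Pearson's r = 0.986) and Smox (0.984). Those most like Igfbp3 were Itga3 (0.994), Tmem63a (0.993) and Wincr1 (0.992), and those most like Igf1 were Akr1c14 (0.996), Mpc2 (0.993) and Mbl2 (0.992). For Igfbp4 they were Col18a1 (0.975), Lamp2 (0.965) and Acsl1 (0.960), and for Igfbp7 Brd9 (0.981), Sugct (0.978) and Pecam1 (0.976). Igfbp7 was at 380 CPM in the hashtag 3 baseline sum, where endothelial markers summed to 874 CPM, and at 13.7 to 69.1 CPM elsewhere. That sum thus weighs heavily in the values for Igfbp7. All values of r in these lists are the highest among 10628 genes, over few sums, and are descriptions. The sparse Igfbp2 was most like Pam16 (0.887), Usp33 (0.839) and Tff3 (0.826), and Igfbp6 most like Cluap1 (0.915), Ttll12 (0.904) and Slc30a6 (0.900).

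Of 21 further genes of IGF and growth hormone signalling, 12 could be tested in deep hepatocytes. Between high and baseline 2 were higher and 3 lower, where 11.9% of all genes were higher and 11.8% lower, with a median log2 change of -0.15. Igfals, the third part of the plasma complex, was at 24.7 CPM at baseline and 3.43 CPM at high Nras in hashtag 1 and at 38 and 5.16 CPM in hashtag 2, so that it fell by 2.82 ± 0.35 on the log2 scale (adjusted p = 0.000223). Stc1, a secreted inhibitor of the proteases that cut IGF binding proteins, went from 0.374 to 17.1 CPM and from 1.53 to 16.2 CPM, with a log2 difference of 3.66 ± 0.43 (adjusted p = 0.000164). Its baseline sums held only 2 and 54 UMIs, so it passed the count filter through the bands where it was higher. Its p-value and its place among the 2 higher genes are to be read with that limit. Irs2, an adaptor of the insulin receptor, fell by 1.51 ± 0.35 (adjusted p = 0.00984), and Stat5b, which carries the growth hormone signal, fell by 1.16 ± 0.29 (adjusted p = 0.0157). The high sums of hashtags 1 and 2 held only 8 and 17 UMIs of Irs2, 5 and 28 of Stat5b and 4 and 22 of Igfals. Irs2 changed by -0.59 in hashtag 1 and by -1.69 in hashtag 2. Igf2r, which clears IGF2, rose by 0.60 ± 0.15 (adjusted p = 0.0171). From baseline to low Nras, Stc1 was higher and Igfals and Ghr were lower. Ghr, the growth hormone receptor, was at 81.5, 43.3, 48.7 and 85.7 CPM from baseline to high in hashtag 1 and at 76.3, 46.8, 52.7 and 56.3 CPM in hashtag 2, so high and baseline cells were apart in hashtag 2 but not in hashtag 1 (log2 difference -0.21 ± 0.17, adjusted p = 0.421).

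Depth was examined apart from Nras, in hepatocytes under 300 Nras CPM. Deep cells had more Igfbp1 and Igfbp3 and less Igfbp7 than shallow ones. Igfbp1 was at 96.2, 256 and 124 CPM in shallow and at 878, 1069 and 598 CPM in deep cells of hashtags 1, 2 and 3, so each deep sum was above each shallow one (log2 difference 2.65 ± 0.22, adjusted p = 0.000809). Igfbp3 was at 36.2, 28.2 and 25.2 CPM in shallow and at 115, 87.8 and 129 CPM in deep cells, also without overlap (2.03 ± 0.20, adjusted p = 0.00105). In all, 3 of 6 members tested passed, where 33.0% of the 7082 genes did. Igf1 was lower in deep cells of each mouse, at 169, 179 and 186 against 291, 261 and 265 CPM, and did not pass (-0.45 ± 0.15, adjusted p = 0.0558). Igfbp4 (0.45 ± 0.22, adjusted p = 0.161) and Igfbp2 (-0.60 ± 0.48, adjusted p = 0.371) were not in the same order in all 3 mice.

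**Figure D4:**
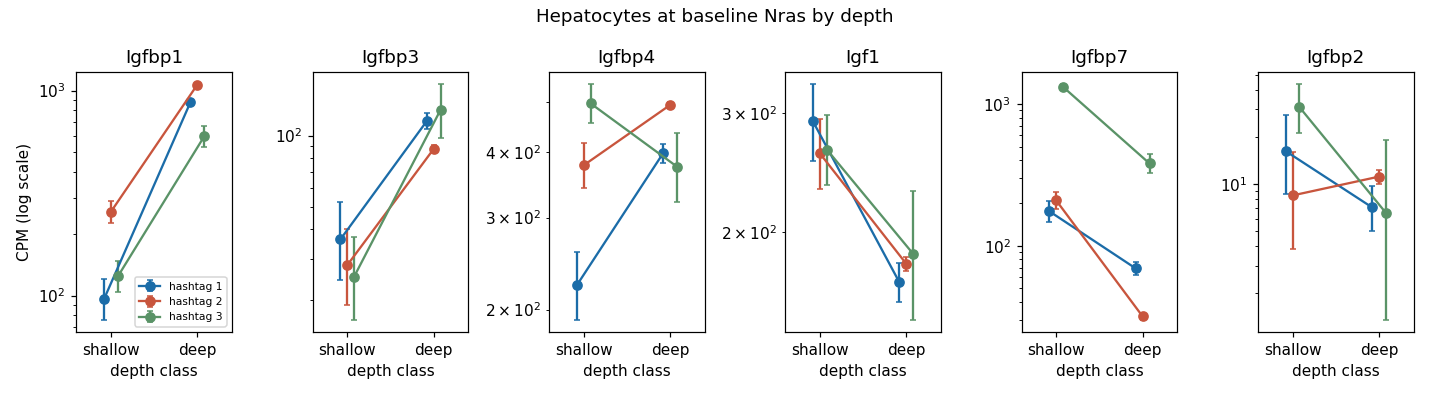
CPM (log axis) of 6 members in shallow and deep hepatocytes at baseline Nras, with a line for each hashtag and exact Poisson 95% intervals. Igfbp1 and Igfbp3 rise in each of the 3 mice and Igfbp7 drops in each, with hashtag 3 at 1317 and 380 CPM.

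The depth classes differed in more than depth. Median mitochondrial shares were 0.803%, 1.74% and 5.52% in shallow and 7.34%, 8.94% and 5.42% in deep cells, and shallow cells had a lower hepatocyte share in each mouse. Igfbp7 was at 175, 209 and 1317 CPM in shallow and 69.1, 31.7 and 380 CPM in deep cells (-1.79 ± 0.24, adjusted p = 0.00229). The summed endothelial markers moved with it, from 345, 511 and 3549 CPM in shallow to 95.7, 14.6 and 874 CPM in deep cells, and all 8 of them were higher in shallow cells of each mouse. Without hepatocytes that passed another marker gate the difference was 0.46 (adjusted p = 0.195). Under the fixed hashtag rule neither Igfbp1 (1.52 ± 0.49, adjusted p = 0.133) nor Igfbp3 (0.58 ± 0.52, adjusted p = 0.723) passed. Genes called in all fell from 2335 to 274 under that rule. Both depth calls, like most others in this comparison, thus depended on how hashtags were called. With a hepatocyte share of at least 5% Igfbp3 did not pass (adjusted p = 0.307), and 59 genes passed in all. Of the further IGF genes, 4 of 9 tested were higher in deep cells and none lower, where 17.3% of all genes were higher and 15.6% lower (Igf2r, Igfals, Igf2bp2 and Insr, the last 2 named after their values were seen).

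The members differed between cell types, here with hashtag doublets left out. Other cells were those under the 1% hepatocyte share with at least 3 UMI-bearing markers of 1 type, and the marker lists hold no member. Igfbp7 was high in endothelial cells, at 4687 CPM over 538 cells and at 2746, 5300 and 4899 CPM in hashtags 1, 2 and 3, against 59.2, 35.1 and 974 CPM in hepatocytes of the same mice. It was found in 99.3% of endothelial cells. The log2 difference was 4.06 ± 0.96 (adjusted p = 0.00381), and without hashtag 1 its adjusted p was 0.0701. Igfbp4 was at 560, 976 and 1025 CPM in endothelial cells and at 354, 436 and 449 CPM in hepatocytes, higher in each mouse but not past the threshold (0.69 ± 0.39, adjusted p = 0.158). In endothelial cells 4 of 5 members tested passed, 1 higher and 3 lower, where 42.7% of the 3982 genes did.

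Stellate cells or fibroblasts were 20 cells, too few per mouse for a test. Their pooled levels were 5127 CPM of Igfbp7, 3442 of Igfbp6, 2587 of Igfbp5, 847 of Igfbp4 and 614 of Igfbp3. Igfbp6 was there in 370 UMIs against 469 UMIs in 8395 hepatocytes (4.25 CPM), and Igfbp5 in 278 UMIs against 41 (0.371 CPM). Endothelial cells had 9.01 CPM of Igfbp5 and no UMI of Igfbp6. Igfbp5 and Igfbp2 lie tail to tail on chromosome 1, 5457 bases apart and with no protein-coding gene between them. Igfbp2 had 12 CPM in hepatocytes, 0 UMIs in the stellate cells and 6.96 CPM in endothelial cells. The 9 cholangiocytes had 561 CPM of Igfbp5, but all 69 of its UMIs came from 1 cell.

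**Figure D5:**
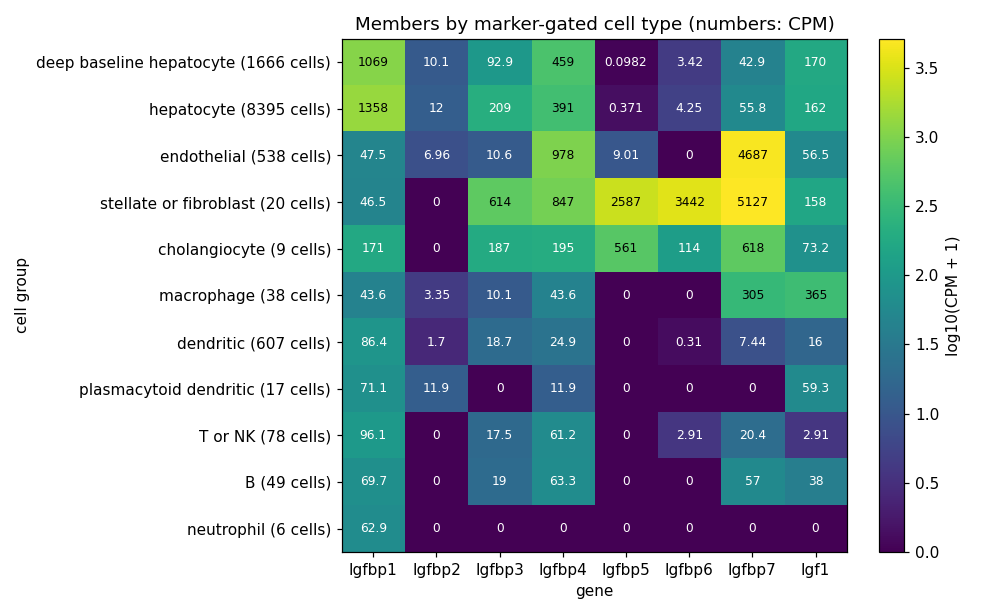
Pooled CPM of the 8 genes (columns, printed in each cell) in hepatocytes and marker-gated cell types (rows, with their number of cells), coloured by log10(CPM + 1). Igfbp1 is highest in hepatocytes, Igfbp7 in stellate and endothelial cells, Igfbp5 and Igfbp6 in stellate cells, and Igf1 in macrophages.

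Igf1 was not limited to hepatocytes. Macrophages held 365 CPM, found in 78.9% of 38 cells, with 316, 369 and 481 CPM in hashtags 1, 2 and 3 against 131, 139 and 229 CPM in hepatocytes. They were higher in each mouse, with a log2 difference of 1.01 ± 0.39 that passed with DESeq2 (adjusted p = 0.0486) but not with edgeR (adjusted p = 0.0538). Igf1 was lower than in hepatocytes in endothelial cells (-2.42 ± 0.43, adjusted p = 0.000708), dendritic cells (-3.03 ± 0.44, adjusted p = 4.01e-05), T or NK cells (-5.94 ± 0.79, adjusted p = 3.27e-05) and B cells (-2.24 ± 0.58, adjusted p = 0.00807). In T or NK cells 1 UMI of Igf1 was found in all 78 cells.

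Igfbp1 and Igfbp3 were lower than in hepatocytes in all 6 types tested. Igfbp3 was at 294, 231 and 106 CPM in hepatocytes of hashtags 1, 2 and 3. Pooled, it was at 10.6 CPM in endothelial cells, 10.1 in macrophages, 18.7 in dendritic and 17.5 in T or NK cells. It thus passed the count filter through the hepatocytes, where it was higher. Its calls as lower, and its place in the counts of members called by cell type, are to be read with that limit. Igfbp1 differed by -5.19 ± 0.78 in endothelial cells and -4.21 ± 0.73 in dendritic cells (adjusted p = 0.000222 and 0.000164). Free RNA in droplets gives such cells hepatocyte UMIs, so levels were set beside Alb. Igfbp3 gave 7.74 UMIs per 1000 Alb UMIs in hepatocytes, 4.96 in endothelial cells, 7.87 in macrophages, 10.0 in T or NK cells and 16.1 in dendritic cells. In dendritic cells 64 of its 121 UMIs came from 1 cell. Igfbp1 gave 50.2 UMIs per 1000 Alb UMIs in hepatocytes, 22.1 in endothelial cells, 29.7 in B cells, 34.1 in macrophages, 55.1 in T or NK cells and 74.2 in dendritic cells, where 371 of the 558 Igfbp1 UMIs came from 1 cell. Its share of cells with a UMI was 18.6% in endothelial cells (median 3744 UMIs) and 24.4% in T or NK cells (median 3269.5), beside 44.9% in hepatocytes (median 3685). Igfbp7 per 1000 Alb was 2185 in endothelial cells and 2.06 in hepatocytes, Igfbp4 was 456 and 14.5, and Igf1 was 286 in macrophages and 5.99 in hepatocytes. Alb is 1 of the 5 genes of the hepatocyte share, so the choice of cells itself made Alb low in the other types. The ratio also varied among hepatocytes. In hashtag 1, Igfbp1 per 1000 Alb was 7.33 in shallow baseline cells and 244 in deep high cells. The ratios are therefore descriptions.

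The other types had few UMIs of the members. All 5 members tested were lower in dendritic cells, where 50.2% of genes passed, and in T or NK cells, where 45.5% did. In B cells 4 of 5 were lower, with 31.7% of genes passing, and Igfbp7 was not. In macrophages Igfbp1, Igfbp3 and Igfbp4 were lower, with 33.3% of genes passing. In plasmacytoid dendritic cells 4 of 5 passed as lower, with 25.4% of genes passing, but the 17 cells held at most 6 UMIs of any member, so no size is given. Without hashtag 1 the calls of Igfbp1, Igfbp3 and Igf1 in B cells and of Igfbp3 and Igfbp7 in T or NK cells were lost (adjusted p = 0.0538, 0.107, 0.0912, 0.0679 and 0.0751). Without hashtag 2 Igfbp3 in B cells was lost (adjusted p = 0.0573), and without hashtag 3 Igf1 in B cells and Igfbp7 in T or NK cells (adjusted p = 0.0587 and 0.277). Igfbp3 did not pass in endothelial, dendritic, T or NK cells, macrophages, B cells or plasmacytoid dendritic cells once the hepatocyte share was set at 5%. Under the 1% share 303 barcodes passed no gate, of which 38 had at least 1000 Nras CPM. The 300 that were no hashtag doublets held 492 CPM of Igfbp1, 235 of Igfbp3 and 33.1 of Igf1.

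The mice can be set side by side only by hashtag. In high cells Igfbp1 was at 3397 CPM in hashtag 1 (exact Poisson 95% interval 3293 to 3505) and 3159 CPM in hashtag 2 (3106 to 3213), Igfbp3 was at 728 and 690 CPM, and Igf1 was at 20.6 and 18.8 CPM. The intervals cover counting error only, and the intervals of the 2 mice overlapped for Igfbp3 and Igf1. Hashtag 2 is a G12V mouse in both sources and hashtag 1 is the D38A mouse in the deposited table alone. Among hashtag 3 cells the high band held 2 cells.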

How the data were processed

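The authors aligned the gene expression reads to mm10 with Cell Ranger (version 2.1.1 in the submitters' processing notes, another elsewhere in the sources) and deposited UMI counts per gene and barcode. They deposited hashtag UMI counts from CITE-seq-Count. Both tables are raw counts with no normalization. The library held 142080194 UMIs.

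Barcodes were assigned to mice with HTODemux (Seurat 5.3.0, positive quantile 0.99), which called 5482 for 1 hashtag, 271 as doublets and 7386 as negative. Doublets within a mouse were left in place. UMIs were summed per mouse and band, depth class or cell type, for sums of at least 5 cells, with Nras and mVenus left out. Sums of 457923 to 35409159 UMIs entered the band fit. edgeR 4.0.16 (R 4.3.3; TMM, filterByExpr, quasi-likelihood test, mouse as block) tested all genes that passed the filter, with Benjamini-Hochberg adjustment. SEs were derived from the F statistic. The scripts were tested on simulated data. Hashtags mark the mouse that cells came from, so the block pairs sums of 1 animal. Alternatives were DESeq2 1.42.0, other filters, limits and hashtag rules.

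Levels are CPM. Intervals are exact Poisson for sums and exact binomial for shares, and cover counting error only, not the spread between mice. Genes were the 8 members, the IGF genes that passed in a band comparison, and the 3 genes most like each member in log2(CPM + 1), of which 1 is not reported here. The members and lists were chosen with earlier results of these data known. Positions are from GENCODE vM21 and promoters from RefSeq, which matched all 8 members.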

Additional observations from a re-analysis of the deposited data

Results flagged for a closer look

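Hashtags 1 and 2 moved in opposite directions for some members between bands. Hashtag 1 is the D38A mouse and hashtag 2 a G12V mouse in the deposited table, but both are G12V mice in the study's methods. The differences between the mice were not tested. The values are log2 differences of CPM + 1.

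For Igfbp2 they were 0.11 in hashtag 1 and -1.10 in hashtag 2 from baseline to high, -0.80 and 0.72 from baseline to low, 0.25 and -0.71 from low to intermediate, and 0.65 and -1.10 from intermediate to high. Hashtag 1 held 6 to 38 UMIs of Igfbp2 in a band. For Igfbp7 they were -0.97 and 0.47 from baseline to low and -0.054 and 0.29 from intermediate to high. For Igfbp4 they were 0.11 and -0.21 from low to intermediate, and for Igfbp1 -0.022 and 0.18 from intermediate to high. None of these differences passed in the joint fit.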

How the results depend on the processing

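Igfbp1, Igfbp3 and Igf1 passed between high and baseline under each of the 13 alternatives that gave a test, with log2 differences of 1.4 to 2.18, 2.72 to 3.20 and -3.27 to -2.56 over those and the fits without hashtag 1 or 2, which left the band fit with no residual degrees of freedom and give values only. The 5 members called there stayed 5 without hashtag 3. Hashtag 3 had only a baseline sum in the band fit, which its own block took up. Leaving it out could thus change little at any band step. A limit of at least 10 cells per sum left out no band sum. Neither of these alternatives, which are among the 13, was a further check of the band calls. From baseline to low the 3 members called became 5 without a filter, 2 with bands of mVenus or a hepatocyte share of 5%, where Igf1 was lost, 1 with band limits at 150, 500 and 1500, and stayed 3 without hashtag 3. Genes called in all at this step were 1033, 10, 59, 46 and 536 under these settings, in that order, against 549 in the main fit. From low to intermediate the 2 became 4 without a filter, 1 with bands of mVenus and 0 without the replicate block, with a hepatocyte share of 5% or with thinned cells. Genes called in all there were 566, 114, 0, 2 and 9, in that order, against 119 in the main fit. From intermediate to high the 0 became 1 without a filter, with DESeq2 and without cells that passed another gate, and 2 with bands of mVenus. Genes called in all at this step were 184, 22, 36 and 215 under these settings, in that order, against 1 in the main fit. In the depth comparison the 3 became 5 without a filter, 1 with a share of 5%, 0 with the fixed hashtag rule, and 3 to 5 without 1 mouse, the 5 without hashtag 3. Genes called in all were 3050 without a filter, 59 with a share of 5% and 274 with the fixed hashtag rule, against 2335 in the main fit. Without hashtags 1, 2 and 3 they were 1096, 1454 and 3008. The one reversed direction was Igfbp7 by depth, at 0.46 without cells that passed another gate. Over all 6 cell types, 25 calls of members became 19 to 20 without 1 mouse. Plasmacytoid dendritic cells had sums in hashtags 2 and 3 only, so without either of these mice they left the fit. Their 4 calls were then not tested, which is not a loss by a test. The cause of the other changes was not tested.

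Genes called in all were 2519 from baseline to high (1005 with a share of 5%), 549 from baseline to low (10 with bands of mVenus to 1033 without a filter), 119 from low to intermediate (0 without the replicate block to 566 without a filter), 1 from intermediate to high (0 without the replicate block to 215 with bands of mVenus), 2335 by depth (59 with a share of 5%) and 9113 over the cell types (4236 without hashtag 1 to 17242 without a filter). Without the replicate block Igfbp4 from baseline to high was at -0.43 (adjusted p = 0.104), Igf1 from low to intermediate at -0.98 (adjusted p = 0.113), Igfbp3 there at 0.69 (adjusted p = 0.139) and Igfbp7 by depth at -1.78 (adjusted p = 0.235). Cells with up to 5% hepatocyte share put with their gated type was an alternative chosen after seeing the data: Igfbp3 then did not pass in endothelial cells (-1.90, adjusted p = 0.156). Depth limits the sparse members: Igfbp5 could not be tested, and in a band of hashtag 1 Igfbp2 rested on 6 to 38 UMIs and Igfbp6 on 4 to 22.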
